A study of Mus musculus with 16 samples.

Results

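Dicer cuts the stem of a miRNA precursor with a pair of RNase III domains. The RNase IIIA domain cuts the strand that carries the 3p arm and so sets the 5′ end of the 3p miRNA, and the RNase IIIB domain cuts the strand that carries the 5p arm and sets the 3′ end of the 5p miRNA. A Dicer with a mutated RNase IIIB domain keeps only the first of these cuts, and the 5p strand then stays joined to the loop. The comparison here sets Dicer -/- cells given Dicer with the RNase IIIB mutation D1709A against Dicer -/- cells given the fluorescent protein mCherry, which have no transfected Dicer.

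The comparison uses 4 of the 16 small RNA libraries of the study, 2 labelled KO + RNase IIIB (D1709A) and 2 labelled KO + mCherry, chosen by their labels. All come from mouse mesenchymal stem cells of strain C57BL/6. The D1709A and mCherry cells share the Dicer -/- genotype and are called D1709A and knockout below. The mutant is a form of human Dicer, per the extraction protocol. Wild type (Dicer f/f cells with mCherry, 2 libraries) and Dicer -/- cells with unmutated human Dicer (2 libraries) are given beside them as a description. The labels do not say whether the replicates were separate cultures, so the p-values measure only the spread between these libraries. Each library is RNA from many cells, so fewer transfected cells and less product per cell cannot be told apart.

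Each D1709A library held 12800198 and 10357746 inserts of 15 nt or more (replicates 1 and 2), and each knockout library 10331036 and 15967421. Levels are given as CPM, the counts per 1000000 of these inserts. Products of the 2 adapters ligated to each other took 20.8% and 17.2% of D1709A inserts and 1.80% and 4.82% of knockout inserts. Knockout replicate 1 stood apart. Among non-miRNA fragments, 153 reached 2000 reads in wild type replicate 1 and were absent from all replicate 2 libraries. Knockout replicate 1 held 153 of the 153, at 0.235% of their wild type count. D1709A replicate 1 held 15 of the 153. Sharing was not confined to knockout: human Dicer replicate 1 held 112, at 0.0409% of the wild type count. The double mutant D1320A/D1709A replicate 1 held 44, at 0.943%. The 102 miRNA arms that reached the same 2000 reads in wild type replicate 1 had a median of 0.285% of their wild type count in knockout replicate 1. The part of these shared reads in the knockout levels was not tested. Levels are given by replicate, and some of the values that average the knockout libraries are also given without this one. Mesenchymal markers were present in all 4 libraries (miR-22-3p, miR-21a-5p), and the liver marker had no reads. The blood cell list summed to 4.45 and 12.9 CPM in D1709A and 2.71 and 3.01 CPM in knockout, and neuron markers stayed under 1 CPM in each. Reads of the Dicer1 gene came to 0.859 and 0.290 CPM in D1709A and 0.0968 and 0.0626 CPM in knockout, which checks no label, since fragments of a human transgene need not match the mouse gene.

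The mature 3p sequences on which the comparison turned are shown first, from RefSeq on GRCm38.p6, written 5′ to 3′ with the seed (bases 2 to 8, which pair with target mRNAs) in capitals. The first base of each is the end that the RNase IIIA cut leaves. The first group rose past the adjusted threshold below, the second holds other abundant 3p miRNAs, and the third holds 3p arms of hairpins read mostly from their 5p arm in wild type. All but miR-18a-3p of the third group are minor arms by the rule given further on. miR-18a-3p met no class of that rule, because its hairpin had no reads in wild type replicate 1. miR-29a-3p and miR-29b-3p share one seed, and the other seeds are all different.

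miR-22-3p: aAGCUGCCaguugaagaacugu
miR-29b-3p: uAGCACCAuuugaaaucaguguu
miR-24-3p: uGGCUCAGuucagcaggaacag

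let-7d-3p: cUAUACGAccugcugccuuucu
miR-29a-3p: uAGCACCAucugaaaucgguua
miR-193a-3p: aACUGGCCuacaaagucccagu
miR-214-3p: aCAGCAGGcacagacaggcagu

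miR-99b-3p: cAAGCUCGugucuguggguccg
miR-31-3p: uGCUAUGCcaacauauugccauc
miR-15b-3p: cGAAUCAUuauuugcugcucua
miR-125a-3p: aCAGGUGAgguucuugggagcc
let-7i-3p: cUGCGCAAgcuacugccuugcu
miR-18a-3p: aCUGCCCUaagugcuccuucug

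miR-22-3p lies at chr11:75463772-75463793 on the plus strand, in an exon of its host transcript Mir22hg. One of the loci of miR-29b-3p, Mir29b-1, gives it at chr6:31063025-31063047 on the minus strand, beside miR-29a-3p at chr6:31062673-31062694. A locus of miR-24-3p, Mir24-1, gives it at chr13:63301251-63301272 on the plus strand. miR-99b-3p (chr17:17830232-17830253) and miR-125a-3p (chr17:17830855-17830876) are neighbours on the plus strand, and the miR-125a hairpin overlaps an exon of Spaca6. miR-31-3p lies at chr4:88910577-88910599 on the minus strand.

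Nearly all counted miRNA reads of the D1709A cells came from 3p arms. Only reads of 18 to 26 nt were counted, which left out longer 5p strands still joined to the loop. Reads that ran 5 nt or more past the usual 5p end are given further on. They came to 12532 and 8120 CPM in D1709A and to 6503 and 12372 CPM in knockout. The 3p share with these reads included was not tested. The 5p levels and shares below have the same limit. miRNA reads made up 7.44% and 3.74% of inserts in the D1709A libraries and 1.54% and 0.293% in the knockout libraries. The 3p arms held 96.4% (95% Wilson interval 96.3 to 96.4) and 95.4% (95.3 to 95.4) of miRNA reads in D1709A. In knockout they held 30.9% (30.7 to 31.1) and 34.2% (33.8 to 34.7), in wild type 50.0% and 58.8%, and in cells with unmutated human Dicer 50.6% and 58.3%. Both D1709A libraries lay above every other library of these 4 groups. Intervals cover counting error only, since reads without molecular identifiers are not independent molecules. The exact permutation test of D1709A against knockout, 2-sided, gave p = 0.333 for the miRNA share and for the 3p share, which is the smallest p that 2 against 2 libraries allow.

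By level, the 3p sums of the groups did not overlap and the 5p sums did. The 3p reads summed to 71723 and 35711 CPM in D1709A and to 4772 and 1004 CPM in knockout, a ratio of 15.0 within replicate 1 and 35.6 within replicate 2. The 5p reads summed to 2703 and 1729 CPM in D1709A and to 10667 and 1928 CPM in knockout, with the second knockout value between the D1709A values. Wild type held 236847 and 220607 CPM of 3p reads. The D1709A 3p output was concentrated: miR-22-3p alone gave 48.6% and 67.5% of it, and the top 10 arms gave 90.5% and 91.5%.

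**Figure D1:**
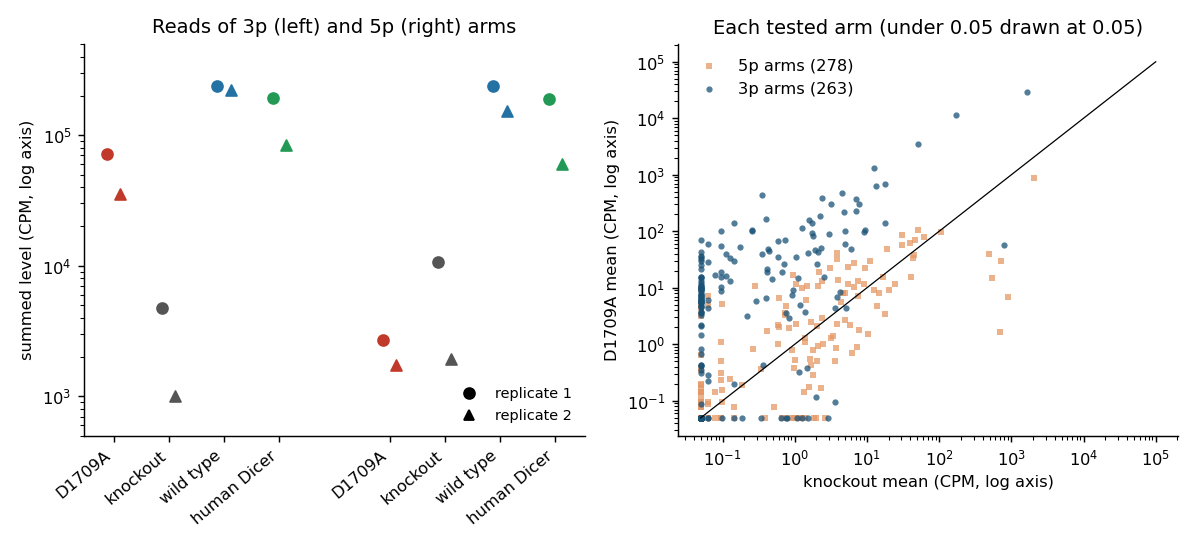
Left, the summed level of 3p and of 5p reads in CPM (log axis), 1 point per library, circles for replicate 1 and triangles for replicate 2. Right, each of the 541 tested arms at its mean level in the 2 knockout libraries (x) and the 2 D1709A libraries (y), both on log axes, with the line of equality. The 3p totals of D1709A (71723 and 35711 CPM) lie between knockout and wild type, the 5p totals (2703 and 1729 CPM) lie within and just below the knockout range of 1928 to 10667 CPM, and most abundant 3p arms lie above the line.

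Of 541 arms tested (263 3p and 278 5p), 3 rose in D1709A against knockout with edgeR's quasi-likelihood test over all 16 libraries at a Benjamini-Hochberg adjusted p under 0.05, and all 3 were 3p arms. This is 0.555% of arms tested. No arm fell (0% of arms tested). At an unadjusted p under 0.05 there were 22 higher arms (4.07%) and 4 lower arms (0.739%). The common biological coefficient of variation of that fit was 2.10, and the SE below are approximate, from the fold change and the test statistic. Replicates differed in how many of the 541 arms they held, with 238 and 251 in D1709A, 158 and 239 in knockout, and 155 and 425 in wild type.

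miR-22-3p, an abundant miRNA of mesenchymal cells, was at 34855 and 24089 CPM in D1709A and at 2870 and 466 CPM in knockout. The D1709A and knockout libraries did not overlap, and wild type was higher than both, at 180289 and 111207 CPM. Its log2 fold change was 4.14 (SE 0.67, edgeR adjusted p = 4.31e-07), and 5.98 without knockout replicate 1. DESeq2 did not call it (adjusted p = 0.123), and its adjusted p ranged from 7.43e-26 to 0.428 over 15 alternatives.

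miR-29b-3p, whose family targets mRNAs of collagens, was at 18133 and 4717 CPM in D1709A and at 124 and 219 CPM in knockout. Its log2 fold change was 6.05 (SE 1.01, edgeR adjusted p = 6.09e-07), and 5.70 without knockout replicate 1. The first D1709A value came near that of wild type replicate 1, which was 18898 CPM, while wild type replicate 2 had 53227 CPM.

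miR-24-3p was at 5392 and 1708.6 CPM in D1709A and at 17.5 and 82.9 CPM in knockout, with a log2 fold change of 6.14 (SE 1.43, edgeR adjusted p = 0.0032). This call was lost without knockout replicate 1 (adjusted p = 0.667) and without D1709A replicate 1 (0.129), and its adjusted p ranged from 5.89e-07 to 0.667 over 15 alternatives. All 3 calls were lost in a fit of the 4 libraries alone, where their adjusted p were 0.428, 0.142 and 0.0667 in the order given above. In that fit 43 other 3p arms and no 5p arm rose, 12.5% of the 343 arms it tested, and 3 5p arms fell, or 0.875%. DESeq2 called 43 3p and 4 5p arms higher, 11.1% of the 425 arms to which it gave an adjusted p, and 18 arms lower (4.24%). Among the 95 arms of 10 CPM or more, 10 3p arms rose (10.5%) and 1 arm fell (1.05%). With trimmed-mean (TMM) scaling 3 3p arms rose and 5 arms fell (0.924%), and with the replicate number as a term 4 rose (0.739%). In each of these fits most of the arms called higher were 3p arms.

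Without a model, both D1709A libraries lay above both knockout libraries for 109 of 541 arms (20.1% of arms tested). These were 88 of 263 3p arms and 21 of 278 5p arms. Both D1709A libraries lay below both knockout libraries for 19 arms (3.51%), 18 of them 5p arms. The exception was miR-676-3p, which had no reads in D1709A and 1.16 and 0.125 CPM in knockout, and which is named because of its values. Over all 3p arms the median log2 ratio of group means, with groups under 3 counts set at 3 counts, was 1.43, and 0.90 against knockout replicate 2 alone. Over all 5p arms and over all arms tested it was 0.18 (-0.54 against replicate 2 alone), which is the ratio of the floors of arms with under 3 counts in both groups and gives no difference.

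The 3p arms were then grouped by their share in wild type, which is not part of the comparison. A 3p arm was minor where 5p reads were 90% or more of the hairpin's reads in both wild type libraries. It was dominant where they were 10% or less in both, and otherwise mixed where the mean of the 2 libraries lay between 10% and 90%. Each class needed 20 or more reads in each wild type library. Arms that met none of these rules had no class. Of the 263 3p arms, 88 had a class and 175 had none (36 of these had both D1709A libraries above both knockout libraries).

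The 18 dominant 3p arms, which include miR-22-3p, miR-29b-3p, miR-29a-3p and miR-193a-3p, summed to 56232 and 30027 CPM in D1709A and to 3074 and 753 CPM in knockout. Of these, 16 of 18 had both D1709A libraries above both knockout libraries, and 2 rose past the adjusted threshold. Both D1709A libraries were below both wild type libraries for 15 of 18. miR-29a-3p was at 1050 and 334 CPM against 24.9 and 10.2 CPM in knockout, and miR-193a-3p at 546 and 222 CPM against 2.61 and 2.13 CPM. The exceptions, miR-328-3p and miR-693-3p, were named after their values were seen. miR-328-3p was at 15.6 and 1.26 CPM in D1709A and at 4.84 and 3.51 CPM in knockout, and miR-693-3p had no reads in D1709A.

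The 27 mixed 3p arms, among them miR-24-3p and let-7d-3p, summed to 10269 and 3851 CPM in D1709A and to 98.0 and 142 CPM in knockout. Both D1709A libraries were above both knockout libraries for 18 of 27 and below for 1, and 1 rose past the adjusted threshold. let-7d-3p, a partner strand of the let-7 family, was at 1747 and 941 CPM in D1709A and at 11.3 and 13.7 CPM in knockout. Wild type had 2155 and 1913 CPM of it. Its 5p partner let-7d-5p was at 23.05 and 3.09 CPM in D1709A and at 9.68 and 5.26 CPM in knockout, so that 5p reads were 1.30% and 0.327% of the hairpin's reads in D1709A and 46.1% and 27.7% in knockout. The ratio itself had an edgeR adjusted p of 1.

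The 43 minor 3p arms summed to 2041 and 733 CPM in D1709A and to 2.90 and 45.03 CPM in knockout. Both D1709A libraries lay above both knockout libraries for 18 of 43, and below for none, beside 88 above of 263 over all 3p arms. This share was smaller than in the mixed class (18 of 27) and the dominant class (16 of 18). None of the 43 rose past the adjusted threshold over all libraries, 2 had an unadjusted p under 0.05, and 12 rose in the fit of the 4 libraries alone. DESeq2 called 7 of them higher and 3 lower. The median log2 ratio of this class was 5.28 (4.58 against knockout replicate 2 alone), beside 1.43 over all 3p arms. It was 5.51 for the mixed and 4.71 for the dominant class, so a ratio of this size was not particular to minor arms. The sums of the minor arms in wild type were 2.83 and 2014 CPM and with unmutated human Dicer 2329 and 472 CPM. Wild type replicate 1 lacked reads for 37 of the 43 arms at a depth of 17298198 inserts. Against wild type replicate 2, both D1709A libraries were higher for 5 of 43 arms.

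The 8 minor 3p arms with the highest level in D1709A are described here with no test, since that level chose them. miR-99b-3p, from the hairpin of a miRNA read almost wholly from its 5p arm, was at 748 and 147 CPM in D1709A, at 0.581 and 0.125 CPM in knockout and at 0.0578 and 99.1 CPM in wild type. Both D1709A libraries were above both wild type libraries. miR-31-3p was at 293 and 85.2 CPM in D1709A, 0.0968 and 4.45 CPM in knockout, and 0 and 206 CPM in wild type. Of the knockout replicate 2 reads that began near its mature start, 58 began 7 nt upstream and 6 at the start itself. miR-15b-3p was at 161 and 64.6 CPM against 0 and 2.51 CPM in knockout, and miR-125a-3p at 140 and 63.1 CPM against 0.387 and 0.125 CPM.

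Each of these had its 2 D1709A values above its 2 knockout values. miR-30d-3p was at 139 and 70.5 CPM in D1709A and at 0.194 and 0.313 CPM in knockout. miR-181a-3p was at 86.7 and 24.3 CPM against 0 and 0.188 CPM, with 10.3 CPM in wild type replicate 2 and no reads in wild type replicate 1. miR-125b-3p was at 64.9 and 22.8 CPM against 0.290 and 3.88 CPM. let-7i-3p was at 30.8 and 59.7 CPM against 0 and 0.877 CPM.

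Some minor 3p arms were nearly absent from D1709A. miR-21a-3p, the partner of a miRNA that is very abundant in these cells, had 0 and 2 reads in D1709A (0 and 0.193 CPM) and 0 and 7.26 CPM in knockout, while wild type replicate 2 had 92.4 CPM. let-7g-3p and let-7f-3p each had a single read in 1 D1709A library. let-7b-3p was at 0.156 and 0.483 CPM in D1709A and let-7c-3p had no reads there, beside 58.1 and 6.44 CPM of these arms in wild type replicate 2. These arms were singled out after their values were seen.

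**Figure D2:**
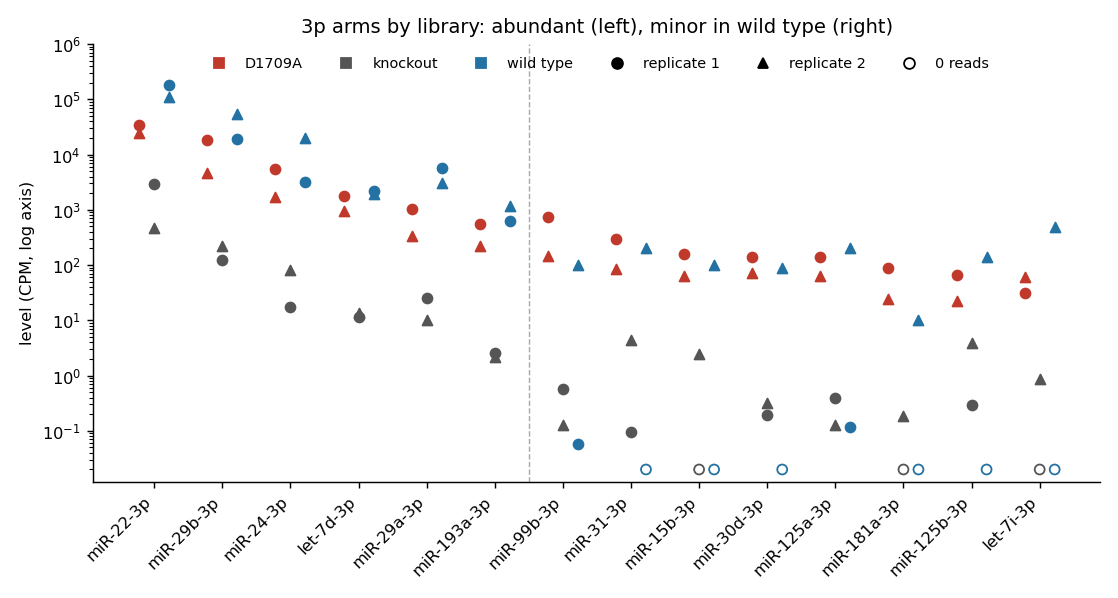
Level of 14 3p arms in CPM (log axis) in each D1709A, knockout and wild type library, circles for replicate 1, triangles for replicate 2 and open symbols at the bottom for 0 reads. Left of the dashed line are abundant 3p arms, right of it the 8 highest minor 3p arms. For every arm drawn the 2 D1709A points lie above the 2 knockout points, and in wild type replicate 1 the minor arms are at 0 or close to it.

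In the let-7 family, whose 5p strands are tumour suppressors in many tissues, 4 of 9 3p arms had both D1709A libraries above both knockout libraries and no 5p arm did. Over all arms tested this held for 33.5% of 3p arms and 7.55% of 5p arms, which are the shares to read the following lists against. The let-7 3p arms summed to 1859 and 1027 CPM in D1709A and to 11.4 and 17.3 CPM in knockout, mostly from let-7d-3p. The 9 let-7 5p arms summed to 301 and 94.6 CPM in D1709A and to 1699 and 196 CPM in knockout, and 3 of the 9 had both D1709A libraries below both knockout libraries. let-7i-5p alone gave 1440 CPM of the first knockout sum and was at 22.1 CPM in the second. No let-7 arm passed edgeR's adjusted threshold over all libraries, 2 had an unadjusted p under 0.05, and 3 of the 3p arms rose in the fit of the 4 libraries alone. DESeq2 called 2 of the 3p arms higher and 1 5p arm lower.

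In the proliferation-linked miR-17-92 cluster with its paralogs, 8 of 9 3p arms lay above both knockout libraries in both D1709A libraries. miR-92a-3p was at 860 and 105 CPM against 6.10 and 2.94 CPM, and miR-17-3p at 215 and 108 CPM against 2.90 and 0.251 CPM. The exception was miR-20a-3p, at 76.7 and 35.4 CPM in D1709A and at 1571 and 2.25 CPM in knockout. Its high value came from knockout replicate 1 alone, where 0% of the 16233 reads began at the 5′ end usual in wild type and the commonest start lay 4 nt upstream. In D1709A 92.1% and 98.6% of its reads began at the usual end. For the 5p arms of this list 2 of 9 lay above.

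For the miR-30 and miR-26 families, 6 of 7 3p arms lay above both knockout libraries and 3 of 7 5p arms lay below. The 3p arms of these families summed to 425 and 189 CPM in D1709A and to 1.06 and 4.01 CPM in knockout, and their 5p arms to 56.0 and 67.9 CPM against 134 and 68.6 CPM. Of the 23 3p arms of mesenchymal and fibroblast miRNAs, 17 lay above in both libraries and 3 rose past the adjusted threshold. Of their 24 5p arms, 3 lay above and 2 below. In the miR-183 cluster of sensory cells, 1 of 3 3p arms and 1 of 3 5p arms lay above, and for 3p arms this is near the share over all 3p arms.

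Some 3p arms of other cell types were also present. miR-206-3p, a muscle miRNA, was at 303 and 25.6 CPM in D1709A and at 0.484 and 0.313 CPM in knockout. The endothelial miR-126a-3p was at 101 and 41.5 CPM against 1.16 and 0.313 CPM. miR-294-3p, of the cluster that marks pluripotent cells, was at 59.4 and 14.9 CPM in D1709A. It had no reads in knockout, which makes D1709A at least 325-fold higher than 3 counts over the knockout group, and none in wild type. The part of other cells in these levels was not tested.

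miRNAs that bypass Drosha or Dicer were examined as their own list. miR-320-3p, whose precursor is a capped transcript end that Dicer cuts, was at 107 and 91.2 CPM in D1709A and at 6.78 and 3.32 CPM in knockout. miR-484-5p, from another capped precursor, was at 21.5 and 12.6 CPM against 1.45 and 0.438 CPM. miR-451a-5p, which is matured by Ago2 in place of Dicer and belongs to red blood cells, had no reads in D1709A and 0 and 2.82 CPM in knockout. miR-320-5p had no reads in D1709A and 0 and 2.63 CPM in knockout. None of the 8 arms of the list passed edgeR's adjusted threshold or an unadjusted p under 0.05, while DESeq2 called 1 3p arm higher and 2 5p arms lower.

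The 5p arms of D1709A cells had no common direction against knockout. Over all 278, 21 had both D1709A libraries above both knockout libraries and 18 had both below. Among the 21 at 10 CPM or more in both D1709A libraries, 8 lay above and 2 below, a cut that favours arms high in D1709A. miR-21a-5p was the most abundant, at 1025 and 702 CPM in D1709A and at 3274 and 817 CPM in knockout, with 61379 and 40765 CPM in wild type. The D1709A values lay inside or below the knockout range, and the log2 fold change was -1.24 (SE 0.80, edgeR adjusted p = 0.949). miR-31-5p was at 92.0 and 121 CPM against 14.5 and 88.7 CPM, and miR-99b-5p at 122 and 47.9 CPM against 40.3 and 21.7 CPM. For both, the D1709A libraries lay above the knockout libraries by less than the fit's error allowed to call. let-7c-5p (169 and 21.3 CPM against 108 and 104 CPM), miR-125b-5p (124 and 34.6 CPM against 58.5 and 65.8 CPM) and miR-15b-5p (95.7 and 45.7 CPM against 1.36 and 91.1 CPM) overlapped between the groups. Levels of 5p arms in knockout replicate 1 also held high single values: miR-181a-5p was at 1821 CPM there and at 2.94 CPM in replicate 2, and miR-10b-5p at 1412 CPM and 0.

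Within a hairpin the balance of arms does not depend on how libraries are scaled. It covers only reads of 18 to 26 nt, so longer 5p strands still joined to the loop are not in the 5p share. The balance with those strands included was not tested. Of 50 hairpins with 20 or more reads in each of the 4 libraries, the 5p share was lower in both D1709A libraries than in both knockout libraries for 29 (58.0%) and higher for 0. The median 5p share over these hairpins was 6.76% and 8.78% in D1709A and 95.4% and 88.3% in knockout. For miR-30d the 5p share was 6.86% and 7.59% in D1709A and 99.1% and 96.5% in knockout. For miR-99b it was 14.04% and 24.6% against 98.6% and 99.4%, and for miR-125b 65.6% and 60.3% against 99.5% and 94.4%. edgeR's test of the ratio called 0 of 184 hairpins (0%), with 5 at an unadjusted p under 0.05 (2.72%). limma called 2 toward 3p with a pseudocount of 5 (1.09%) and none with 0.5.

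The reads of 3p arms were of the usual size. Their commonest length was 22 nt in all 4 libraries, and 98.4% and 99.1% of D1709A 3p reads were 21 to 23 nt long. Among the 112 and 85 3p arms with 20 or more reads, A, C and U were each the commonest first base for 25 to 34 arms, and G for 14 and 5.

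The 5′ end of a 3p read is the RNase IIIA cut. For each arm the usual end was taken as the 5′ position most used in wild type. Over 21 3p arms with 20 or more reads in all 4 libraries, the median share of reads at the usual 5′ end was 97.1% and 98.6% in D1709A and 98.2% and 98.5% in knockout. The values overlapped (exact permutation p = 1). Over 23 3p arms the median was 97.6% and 98.6% in D1709A, 100% and 97.7% in wild type, and 100% and 95.6% with unmutated human Dicer. Over all 69 3p arms with 20 or more reads in both D1709A libraries, it was 99.7% and 99.9%. The 3′ ends of the 3p reads, which Drosha sets, were more spread, with 87.8% and 68.9% at the usual end in D1709A and 75.2% and 77.3% in knockout.

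Some 3p arms had lower shares, and the 6 with the lowest share at the usual 5′ end are described among the 17 3p arms of 100 CPM or more in both D1709A libraries. The first is miR-29a-3p, which came in a pair of forms that differ by 1 base at the 5′ end, so that the seed shifts by 1 base.

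miR-29a-3p, longer 5′ end (chr6:31062674-31062695): cUAGCACCaucugaaaucgguu
miR-29a-3p, usual end (chr6:31062673-31062694): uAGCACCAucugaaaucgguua

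The form that begins 1 base upstream made up 62.3% (95% Wilson interval 61.5 to 63.1) and 57.5% (55.8 to 59.1) of miR-29a-3p reads in D1709A. It made up 51.0% (44.9 to 57.0) and 19.02% (13.7 to 25.7) in knockout, 54.7% and 25.3% in wild type, and 32.0% with unmutated human Dicer in replicate 2 (in replicate 1 the interval was 37.6 to 38.4). Both D1709A libraries lay above the other 6 libraries, and it was the only arm of the 17 whose commonest 5′ end differed from the usual one in both D1709A libraries. Knockout rests on 257 and 163 reads. miR-29b-3p, with the same seed, had 0.212% and 0.166% of its reads upstream in D1709A.

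The second pair of forms is that of miR-214-3p, of which the longer one is the commoner in wild type and differs from the RefSeq form by 1 base at the 5′ end.

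miR-214-3p, longer 5′ end (chr1:162223437-162223459): uACAGCAGgcacagacaggcagu
miR-214-3p, RefSeq form (chr1:162223438-162223459): aCAGCAGGcacagacaggcagu

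The longer form made up 82.2% (81.2 to 83.2) and 93.4% (92.2 to 94.5) of miR-214-3p reads in D1709A. It made up 55.7% (47.4 to 63.7) and 60.6% (43.7 to 75.3) in knockout, 52.2% and 61.9% in wild type, and 68.6% and 60.9% with unmutated human Dicer. Both D1709A libraries again lay above the other 6. Here the longer form has the usual end, so a larger share of reads was at that end in D1709A, the reverse of miR-29a-3p. The groups of 2 libraries allow no p under 0.333 by an exact permutation test.

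The other 4 arms of the 6 also kept the usual 5′ end as the commonest. miR-423-3p had 69.9% and 61.9% of reads at the usual end in D1709A, against 80.2% and 77.1% in knockout, and 28.7% and 38.1% of its D1709A reads began upstream, against 24.2% and 12.8% in wild type. miR-17-3p had 85.3% and 93.5% at the usual end, miR-16-3p 90.7% and 89.7%, and miR-18a-3p 79.3% and 99.9%. Below 100 CPM, miR-151-3p was singled out after its values were seen. It had 23.7% and 5.19% of 1055 and 135 D1709A reads at the usual 5′ end, against 100% and 97.1% in wild type, and 76.3% and 94.8% of its D1709A reads began upstream.

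Averaged over the 23 3p arms, 9.001% and 8.49% of D1709A reads began 1 base upstream of the usual end, which was above each wild type and human Dicer library. Against those 4 libraries the upstream share was higher in both D1709A libraries for 6 of 23 arms, by over 5 percentage points for 0. An arm with no upstream reads in one of those libraries could not be lower, which held for most arms. Over 67 arms read in the replicate 2 libraries of wild type and human Dicer, the upstream share was higher in both D1709A libraries for 9 and lower in both for 10. Among the 23 arms, miR-29a-3p (62.3% and 57.5%) and miR-140-3p (57.6% and 78.4%) had the highest upstream shares in D1709A, so the mean leans on few arms. The share of miR-140-3p was 24.8% and 60.1% in wild type and 0.0754% and 65.0% with human Dicer. The difference in the upstream share was not tested.

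**Figure D3:**
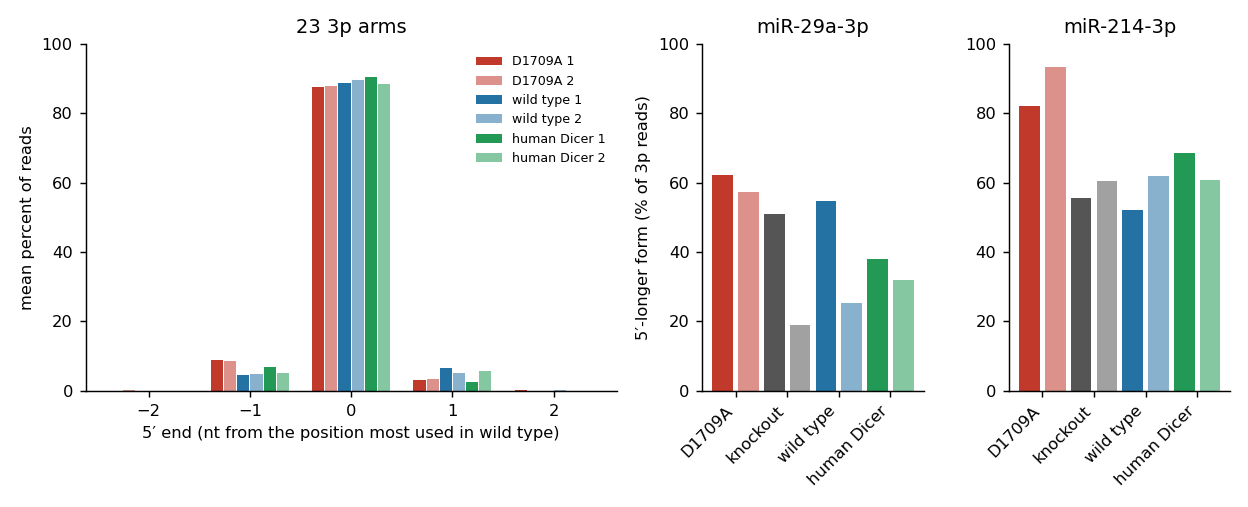
Left, position of the 5′ end of 3p reads in nt from the position most used in wild type, as the mean percent of reads over 23 3p arms, 1 bar per library (pale bars are replicate 2). Middle and right, percent of miR-29a-3p and of miR-214-3p reads in the form with the longer 5′ end, 1 bar per library in the order of the groups. In every library 87.7% to 90.6% of reads begin at the usual position. For both named arms the 2 D1709A bars are the highest of the 8. The longer form has the usual end for miR-214-3p and begins upstream of it for miR-29a-3p.

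The 5p strand was examined next, for reads that begin at the usual 5p start and run into the loop. Reads that ran 5 nt or more past the usual 5p end, whatever their 3′ end, came to 12532 and 8120 CPM in D1709A and to 6503 and 12372 CPM in knockout, and overlapped (exact permutation p = 0.667). Those that also ended within 2 nt of the base before the usual 3p start, as an RNase IIIA cut would leave them, came to 5595 and 2577 CPM in D1709A and to 0.484 and 34.1 CPM in knockout. The exact permutation p was 0.333, the smallest that 2 against 2 libraries allow. Wild type had 0.231 and 63.8 CPM of such reads, human Dicer 0.277 and 42.9 CPM, and the double mutant D1320A/D1709A, with neither domain active, 0.182 and 17.1 CPM.

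The sequences below are the commonest such reads of 4 hairpins by CPM summed over both D1709A libraries. For miR-31 and miR-18a the end shown was the commonest in each library. The miR-18a molecule is 40 nt long, and reads of 41 nt in replicate 1 could not show an end further on. For miR-18a only replicate 2 could compare these ends. For miR-193a and miR-29a it was the commonest in replicate 2 alone, and in replicate 1 more reads ended 1 base further on, directly before mature 3p (59.8% for miR-193a and 42.3% for miR-29a). Lower case marks the mature 5p miRNA and capitals the loop bases that remain attached to it. Coordinates are of GRCm38.

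miR-31 (chr4:88910602-88910635, minus strand): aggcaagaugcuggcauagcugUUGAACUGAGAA
miR-193a (chr11:79711975-79712007, plus strand): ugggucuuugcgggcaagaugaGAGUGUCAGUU
miR-29a (chr6:31062696-31062732, minus strand): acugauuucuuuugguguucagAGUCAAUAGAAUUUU
miR-18a (chr14:115043867-115043906, plus strand): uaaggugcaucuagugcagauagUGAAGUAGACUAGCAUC

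miR-31 gave most of these reads, 58318 of 71622 in D1709A replicate 1 (81.4%) and 22756 of 26688 in replicate 2 (85.3%). Its 34-nt molecule carries 12 loop bases and ends 2 bases short of mature miR-31-3p. Of the miR-31 reads that ended at or before the 3p start, 45.4% and 58.1% had exactly this end in D1709A. In knockout replicate 2, the reads of miR-31 that ended before the 3p start came to 108 CPM, of which 3.32% had this end. The miR-31-3p reads themselves began mostly at the mature start in D1709A (94.1% of 3752 and 77.6% of 882 reads), so that 2 bases lay between the commonest ends of the 2 products. Among reads that began near the mature start, 99.97% and 95.0% began exactly at it and none upstream of it. A further 5.89% and 18.4% of all reads given to this arm began further upstream and ran across the 2 bases into the 3p arm.

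The extended 5p molecule of miR-31 was more abundant than its 3p arm, at 4556 and 2197 CPM within the window against 293 and 85.2 CPM. For miR-193a, miR-29a and miR-18a the order was the reverse. The extended molecule of miR-193a was at 172 and 96.2 CPM beside 546 and 222 CPM of miR-193a-3p, and had 0 reads in knockout, which allows up to 0.290 and 0.188 CPM. That of miR-29a was at 153 and 37.4 CPM beside 1050 and 334 CPM of miR-29a-3p, and also had 0 reads in knockout. That of miR-18a was at 43.5 and 22.9 CPM beside 178 and 105 CPM of miR-18a-3p. The molecule of miR-29a shown ended 1 base short of the mature start, directly before the 5′-longer form of miR-29a-3p. Reads with that end were 40.02% and 40.6% of its reads that stopped at the 3p start or before, and reads that ended directly before the usual form were 42.3% and 28.9%, so that neither end was the commoner in both libraries.

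Such reads came from 28 and 23 miRNAs in D1709A, and from 11 in both libraries. Of these 11, 9 had no such read in either knockout library and 5 had none in knockout, wild type or human Dicer libraries. miR-99b, miR-99a, miR-101b and miR-30d were among the 11. Loops freed by cuts on both strands begin at the 5p end and stop at the 3p start. Those shorter than 15 nt could not be counted, because such inserts were left out. Freed loops of 15 nt or more had 0 reads in each D1709A library, which allows up to 0.234 and 0.290 CPM of them. Knockout had 0 and 2 such reads, wild type 0 and 213, and human Dicer 0 and 85, so D1709A and knockout overlapped. Reads of 41 nt in replicate 1 and 51 nt in replicate 2 limit which extended molecules could be read to their end.

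**Figure D4:**
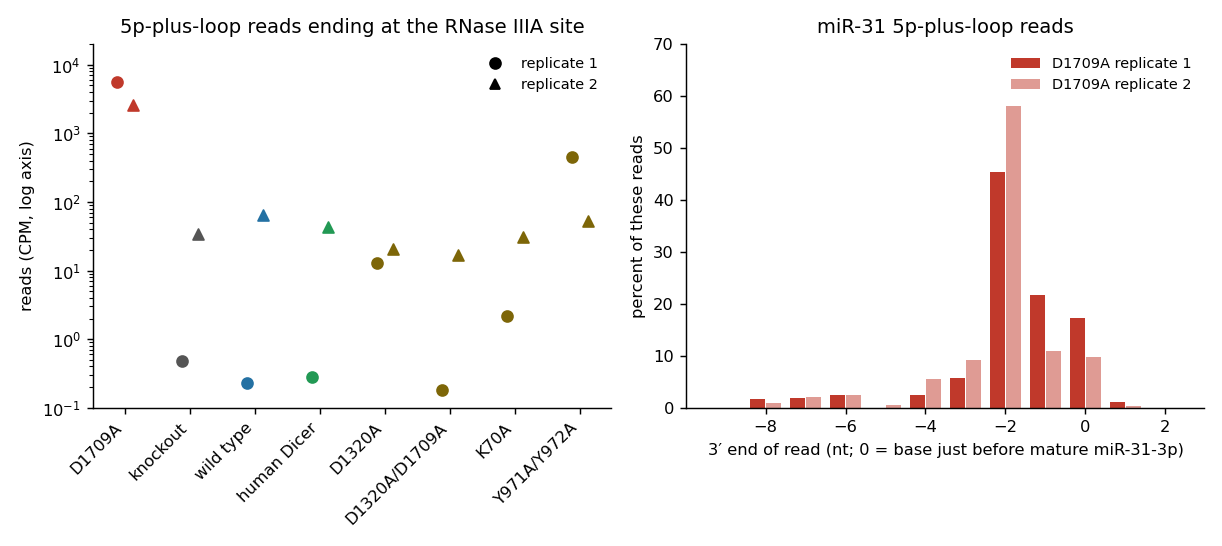
Left, reads that begin at the usual 5p start and end within 2 nt of the base before the usual 3p start, in CPM (log axis), 1 point per library of all 8 groups. Right, 3′ ends of miR-31 reads in both D1709A libraries, in nt from the base just before mature miR-31-3p, as percent of the reads drawn. The right panel draws a wider set than the left. Its reads run from the 5p start into the loop and end no more than 2 nt past the base before the 3p start. The 2 D1709A libraries (5595 and 2577 CPM) are the highest, and the commonest miR-31 end lies 2 nt before the 3p arm in both.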

How the data were processed

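The deposited files list each distinct read with its count, untrimmed, per the files themselves; how they were made is not given in the sources used here. From these raw counts the 3′ adapter stated in the labels was removed (12 bases matched, or 5 or more at the read end), and inserts of 15 nt or more set the library size. Reads of 18 to 26 nt that match a GENCODE M21 miRNA hairpin exactly were assigned to arms by RefSeq mature positions, and reads shared by differently named hairpins were left out. Arms with 20 or more reads over all 16 libraries were tested with edgeR 4.0.16 (quasi-likelihood, 8 groups in one fit, no further scaling). DESeq2 1.42.0 and limma 3.58.1 in R 4.3.3 gave alternatives, and exact permutation tests single values. The fit was tested on simulated data.

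Named arms are the called arms, the 8 highest minor 3p and 6 highest 5p arms, miR-451a, miR-320 and miR-484, and the 6 3p arms least at the usual 5′ end. The members and lists were chosen with earlier results of these data known. Lists cover let-7, miR-17-92, mesenchymal, miR-30 and miR-26, miR-183, bypass, and pluripotent, blood, neuron, muscle, liver and endothelial miRNAs. Of 1174 hairpins, 1007 had a RefSeq mature sequence. Deviations of the same-numbered D1709A and knockout libraries correlated at 0.0767, so replicate numbers were not taken to pair them.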

Additional observations from a re-analysis of the deposited data

How the results depend on the processing

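The number of 3p arms that rose was 3, and it was 10 among the 95 arms of 10 CPM or more, 43 in a fit of the 4 libraries alone and 43 with DESeq2. None of the 3 was among the 46 arms called in the fit of the 4 libraries, 2 were among the 65 called by DESeq2 (miR-22-3p was not, adjusted p = 0.123), and all 3 were called at 10 CPM or more. No 5p arm rose, except 4 with DESeq2. No arm fell, except 5 with TMM scaling, 1 at 10 CPM or more, 3 in the fit of the 4 libraries and 18 with DESeq2. TMM moved the log2 changes of the 120 arms read in all 4 libraries by a median of -1.61, DESeq2 by -0.97 and scaling without adapter products, chosen after seeing the data, by 0.26. Leaving out 1 library gave 2 to 3 3p arms higher, 0 5p arms higher and 0 to 1 arms lower. With the replicate number as a block 4 3p arms rose and none fell, and the ratio test called 0 hairpins; the pairing check gave no ground for that block.

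The ratio test called 0 hairpins, and limma with a pseudocount of 5 called 2. With minor arms set at 99% 5p in wild type (19 arms), their sums differed by 93.8 CPM between the group means of 101 and 7.66 CPM (132 and 71.1 CPM in D1709A, 0.290 and 15.03 CPM in knockout). The median share over arms at the usual 5′ end of 3p reads, averaged over the libraries of a group, was lower in D1709A by 0.52 percentage points. The lower quartile over arms was 82.2% and 89.7% in D1709A and 77.1% and 46.3% in knockout. The share was higher in D1709A by 3.65 points with 50 reads per arm and library and by 16.3 points with reads pooled over arms. The pooled reads include miR-20a-3p, whose reads in knockout replicate 1 began upstream of the usual end, as given above. They were 16233 of the 49304 3p reads of that library, and the gap without this arm was not tested. Where calls changed, the cause was not tested. On simulated counts with the real spread the test recovered none of the changed arms, so arms that were not called may still differ. Knockout replicate 1 and wild type replicate 1 had reads for only 158 and 155 of the 541 arms, the latter with 8195383 miRNA reads against 7686307 in wild type replicate 2, which held 425 arms. Between these libraries the number of arms read did not follow depth, and the cause was not tested.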
